A study of Mus musculus with 6 samples.

Results

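The genes described here encode the initiation and elongation factors of cytosolic translation, with the kinases and methyltransferases named after them. Members were the protein-coding mouse genes whose symbols begin with Eif1 to Eif6, Eef1 or Eef2. Of 68 protein-coding matches 2 were left out by the rule, 1 of them on chromosome Y, and a further 10 matches were pseudogenes or non-coding. This left 66 genes of 35127 in the files, 21899 of which are protein-coding. In 63 of them expression was high enough for a test. The other 3, Eif4e1b, Eif4ebp3 and Eef1akmt3, had 0 to 9 reads in a library.

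The data are bulk RNA-seq of mouse astrocytes, with 6 libraries in all. Tumour libraries 1 to 3 hold astrocytes isolated out of brains bearing an SCLC (small cell lung cancer) allograft; this cancer is a neuroendocrine carcinoma. Sham libraries 1 to 3 hold astrocytes of brains given a sham injection and no graft. The comparison asks how these genes differ between astrocytes near the graft and control astrocytes. The sources used here do not give strain, age, time after injection, graft line or the way the astrocytes were purified, nor the animal or culture behind each library. All p-values therefore rest on the spread among these 6 libraries alone, and that spread may be technical. An allograft is itself mouse tissue, so reads of graft cells cannot be told apart from host reads by sequence.

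Translation of most mRNAs begins when eIF4E binds the cap, joined by the scaffold eIF4G and the helicase eIF4A with its cofactors eIF4B and eIF4H. The small ribosomal subunit, held by eIF3, eIF1 and eIF1A, arrives with the initiator tRNA that eIF2 carries as a GTP complex. eIF5 triggers GTP hydrolysis, and eIF2B recharges eIF2. eIF4E-binding proteins compete with eIF4G for eIF4E until mTORC1 phosphorylates them, and stress kinases phosphorylate eIF2 so that it blocks eIF2B, which lowers general translation and favours that of ATF4. During elongation eEF1A delivers aminoacyl-tRNA, the eEF1B subunits recharge eEF1A, and eEF2 moves the ribosome along. The mRNAs of elongation factors, like those of ribosomal proteins, begin with a pyrimidine tract that places them under mTORC1 and LARP1. In astrocytes, mutations of eIF2B subunits are known for vanishing white matter disease.

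Libraries held 22133723 to 25800897 estimated reads. The spread within the tumour group was narrow, and sham library 3 stood apart from sham 1 and 2. Over the tested members the root mean square log2 difference was 0.0975 to 0.128 for pairs of tumour libraries and for sham 1 with sham 2. For a tumour with a sham library it was 0.394 to 0.461, and for sham 3 with either other sham library 0.506 to 0.535. Estimated counts of the close pairs differed by more than sampling noise (chi-square per degree of freedom 2.88 to 3.68), which does not show that they are separate preparations. All 6 libraries were kept as separate samples. The sources used here do not say whether the close libraries are separate preparations.

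Astrocyte markers were present, and sham 3 had the lowest sum of the 10. It was 2692 CPM (reads of a gene scaled to its library size, with TMM factors) in sham 3 but 4616 and 4625 CPM in sham 1 and 2, and 3139 to 3247 CPM in the tumour libraries; Aldh1l1 was called higher and Gja1 and Gjb6 lower. For the 6 pericyte or fibroblast markers sham 3 had the highest sum, 5798 CPM against 3446 and 3450 CPM in sham 1 and 2 and 3621 to 3653 CPM in the tumour libraries. Most of it was Col1a1 and Col1a2, which like Pdgfrb and Rgs5 were highest in sham 3. Dcn and Lum went the other way among the sham libraries. Dcn had 52.5 CPM in sham 3 against 132 and 123 CPM in sham 1 and 2, and Lum 45.9 against 60.8 and 55.7 CPM. The 5 cycling cell markers summed to 302 to 315 CPM in the tumour group and 143 to 251 CPM in the sham group, with 1 member called higher. The 8 oligodendrocyte lineage markers summed to 328 to 338 CPM and 242 to 277 CPM, with 1, Pdgfra, called higher. Most of this sum was Pdgfra and Cspg4, while Sox10, Mog and Mag had at most 0.355 CPM in any library. The 12 SCLC or neuroendocrine markers summed to 16.2 to 20.2 CPM in the tumour and 20.4 to 30.2 CPM in the sham libraries, 0 of 6 tested were called, and Epcam had 0.237 to 0.331 CPM in the tumour libraries and 0 in the sham libraries. Sums in the tumour and sham libraries were 165 to 167 and 147 to 216 CPM for 8 neuron markers, mostly Stmn2 and Map2. Rbfox3 was at 0 throughout, Gad1 was called higher and Tubb3 lower. The 8 microglia markers summed to 89.5 to 90.0 and 84.7 to 112 CPM, nearly all of it Tmem119. For 5 endothelial markers the sums were 584 to 589 and 513 to 612 CPM, nearly all of it Cdh5 (Cldn5 at 0 throughout, Kdr called lower). The part of these other cells in the results was not tested. In bulk RNA, fewer cells of a type and less RNA per cell cannot be told apart.

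Members were called in both directions, with the largest fold change in Eif4ebp1. Of the 63 tested members 4 were higher in the tumour libraries, Eif4ebp1, Eif1, Eif3c and Eif5, where 10.5% of all tested genes were higher. A further 6 were lower, Eif2b2, Eif4e, Eif4g3, Eef1akmt1, Eef1akmt2 and Eif2ak2, where 10.4% of all genes were lower (quasi-likelihood test of edgeR, adjusted p below 0.05 by Benjamini-Hochberg over 14359 genes). Together 15.9% of the members were called, and 20.9% of all tested genes. The median log2 fold change was 0.01 over the members and -0.02 over all tested genes, and 34 members had a positive value. The groups did not overlap in 19 members, 9 with the tumour libraries above and 10 below, or 30.2% of members where 44.1% of all tested genes had this. Scaling by total counts alone gave 3 higher and 9 lower members, and 1318 higher and 1945 lower genes in all. With tumour 1 to 3 summed to 1 library and sham 1 and 2 to another, edgeR called 0 members and 0 genes in all, with 2 of 64 members and 573 of 15684 genes at an unadjusted p below 0.05.

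**Figure D1:**
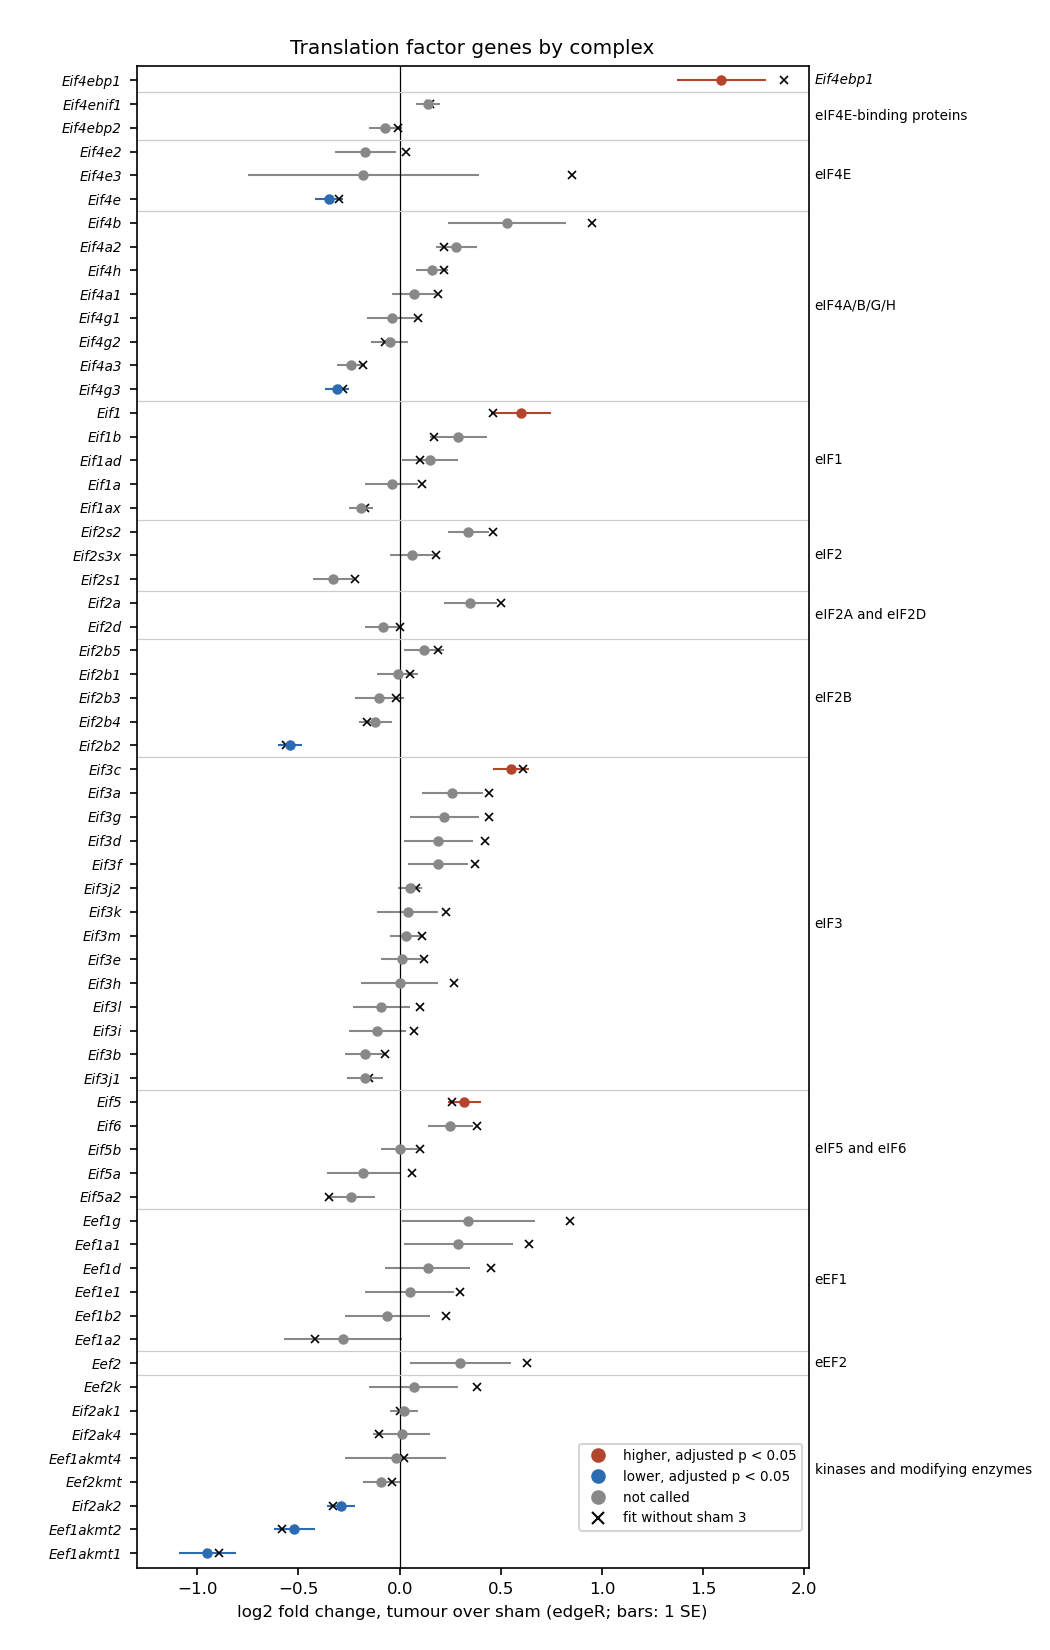
Log2 fold change of each of the 63 tested factor genes, tumour over sham (x axis), grouped by complex (y axis). Dots with bars are the edgeR estimate with 1 SE over all 6 libraries and crosses are the fit without sham 3. Eif4ebp1 lies at 1.59, the other members lie between -0.95 and 0.60, and in the eEF1, eEF2 and eIF3 rows most crosses lie to the right of the dots.

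Sham 3 stood above the other libraries in most members. It was the highest of the 6 libraries in 39 of 63 members (61.9%), where this held for 27.3% of all tested genes. Its median log2 difference from the mean of sham 1 and 2 was 0.24 over the members and 0.00 over all tested genes. Without sham 3, 32 members were higher and 11 lower, and the median log2 fold change was 0.11; of all genes tested in that fit, 29.1% were higher and 28.6% lower. Against sham 3 alone the tumour libraries were lower by a median log2 difference of -0.18.

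Eif4ebp1 encodes 4E-BP1, the repressor that binds eIF4E when mTORC1 is inactive. It lies on chromosome 8 from 27260329 to 27276674 (GRCm38, plus strand). Its level was 103, 99.6 and 104 CPM in tumour libraries 1 to 3 and 27.0, 27.9 and 46.8 CPM in sham libraries 1 to 3. All tumour values were above all sham values, with sham 3 closer to them than sham 1 and 2 were. The means of 102 ± 2.31 and 33.9 ± 11.2 CPM (SD, n = 3) differed 3.02-fold, or 1.59 on the log2 scale (SE 0.22, edgeR adjusted p = 0.00535), with 1.90 when sham 3 was left out. The call was kept whichever library was left out. At least 98.4% of its reads in each library were assigned to the same transcript, of 1997 bases.

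The other 2 tested binding protein genes were not called. Eif4ebp2, the binding protein best known from neurons, had 110, 104 and 111 CPM in the tumour and 107, 111 and 124 CPM in the sham libraries, which overlap (edgeR log2 fold change -0.07, SE 0.08, adjusted p = 0.537). Eif4enif1, whose product carries eIF4E into the nucleus, had 46.4, 48.0 and 44.3 CPM in the tumour and 42.1, 41.2 and 42.2 CPM in the sham libraries. The groups did not overlap, and the difference was not called (0.14, SE 0.06, adjusted p = 0.141). On the per-length scale of TPM (reads scaled to transcript length and library size) Eif4ebp1 and Eif4ebp2 were at a similar level in sham 1 and 2, with a ratio of 0.991 and 0.988. That ratio was 1.45 in sham 3 and 3.72, 3.66 and 3.70 in the tumour libraries.

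**Figure D2:**
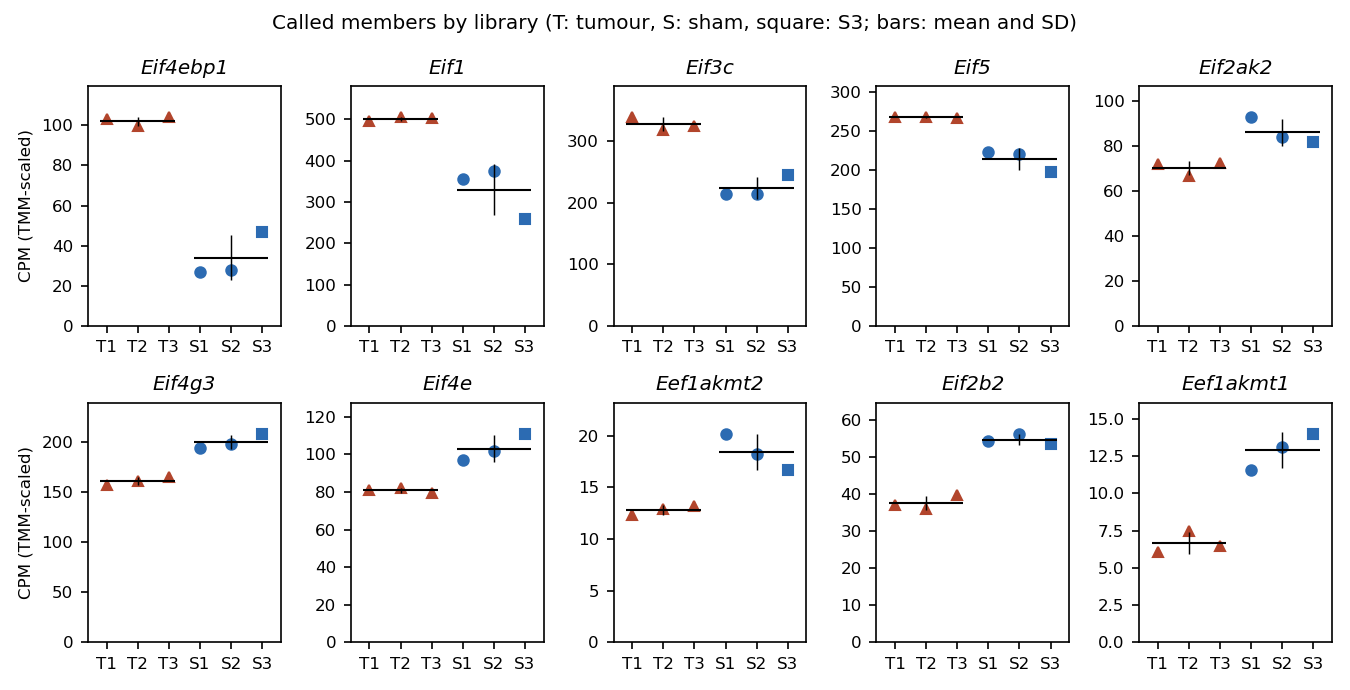
Level in CPM (y axis, from 0) of the 10 called factor genes in each library (x axis; T1 to T3 tumour triangles, S1 and S2 sham circles, S3 sham square), with the group mean as a horizontal line and 1 SD as a vertical line. In each panel the 3 tumour values lie on 1 side of the 3 sham values, and Eif4ebp1 has the widest gap.

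The cap-binding gene Eif4e fell. It lies on chromosome 3 from 138526179 to 138559696 (plus strand). Its level was 81.2, 82.2 and 79.6 CPM in the tumour and 96.8, 102 and 111 CPM in the sham libraries, so every tumour value was below every sham value. Its log2 fold change was -0.35 (edgeR, SE 0.07, adjusted p = 0.0157), and -0.30 without sham 3. The call ended with transcript length offsets (adjusted p = 0.136) and without any 1 tumour library or sham 2 (adjusted p 0.0536 to 0.0862). The TPM ratio of Eif4ebp1 to Eif4e was 1.55, 1.11 and 1.44 in the tumour libraries and 0.277, 0.329 and 0.446 in the sham libraries. In TPM, Eif4e itself overlapped between the groups, at 71.4, 91.8 and 75.5 in the tumour and 97.2, 86.4 and 109 in the sham libraries. The messages of the repressor and of the factor it binds thus stood in opposite order in the groups in CPM only. No phosphorylation or protein was measured. Of the relatives of Eif4e, Eif4e2 had 45.0 to 50.0 CPM in the tumour and 45.5 to 67.3 CPM in the sham libraries. Eif4e3 had 24.0 to 26.3 CPM in tumour libraries, 58.0 CPM in sham 3 but 11.6 and 16.3 CPM in sham 1 and 2.

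Of the 8 genes named Eif4a, Eif4b, Eif4g and Eif4h, 1 was called (12.5%, against 20.9% of all tested genes). Eif4g3 encodes a scaffold paralogous to that of Eif4g1 and lies on chromosome 4 from 137993022 to 138208508 (plus strand). It had 157, 161 and 165 CPM in the tumour and 194, 198 and 208 CPM in the sham libraries. The tumour values all lay below, with a log2 fold change of -0.31 (edgeR, SE 0.06, adjusted p = 0.0197) and -0.28 without sham 3. This call ended with transcript length offsets (adjusted p = 0.115) and without any 1 tumour library or sham 2 (adjusted p 0.0639 to 0.109). The antisense gene 1700095J12Rik overlaps Eif4g3, and their reads cannot be separated without strand. Eif4g1 itself had 422 to 448 CPM in the tumour and 398 to 519 CPM in the sham libraries, which overlap.

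The helicase genes and their cofactors were not called. Eif4b, the helicase cofactor, had 532, 536 and 525 CPM in the tumour and 273, 276 and 557 CPM in the sham libraries. Sham 3 was the highest of the 6, and sham 1 and 2 were far below. With all libraries the log2 fold change was 0.53 (edgeR, SE 0.29, adjusted p = 0.237), and it was 0.95 (adjusted p = 2.86e-25) without sham 3. Eif4a2, a helicase gene and the most abundant of these 8 in TPM, had 547, 531 and 544 CPM in the tumour and 485, 443 and 406 CPM in the sham libraries. These groups did not overlap, and sham 3 was the lowest (log2 fold change 0.28, SE 0.10, adjusted p = 0.0853; DESeq2 adjusted p = 0.0196). Its paralogue Eif4a1 had 376 to 379 CPM and 331 to 413 CPM, a level made uncertain by pseudogene copies. Eif4a3, the helicase of the exon junction complex, lay below in every tumour library at 54.1 to 57.0 CPM against 62.8 to 71.1 CPM (adjusted p = 0.0601).

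In the eIF1 group 1 of 5 tested genes was called. Eif1, whose product keeps the scanning ribosome from settling on poor start codons, lies on chromosome 11 from 100319885 to 100322096 (plus strand). It had 496, 505 and 504 CPM in the tumour and 355, 375 and 260 CPM in the sham libraries. All tumour values were above, and sham 3 was the lowest of the 6, the reverse of its place in most members. Eif1 rose by a log2 fold change of 0.60 (edgeR, SE 0.15, adjusted p = 0.0324), and 0.46 without sham 3. The call ended with transcript length offsets (adjusted p = 0.0637) and without any 1 tumour library or sham 1 (0.0711 to 0.117). Its paralogue Eif1b had 58.8 to 62.4 CPM in the tumour and 40.3 to 59.2 CPM in the sham libraries, with sham 3 lowest again, and was not called. Eif1a and Eif1ax, near-identical copies whose reads are hard to divide, had log2 fold changes of -0.04 and -0.19, neither called.

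In the group of eIF5 and eIF6 genes 1 of 5 tested was called. Eif5, whose product makes eIF2 hydrolyse its GTP at the start codon, lies on chromosome 12 from 111538016 to 111546752 (plus strand). Its level was 268, 268 and 267 CPM in the tumour and 224, 221 and 198 CPM in the sham libraries, without overlap and again with sham 3 lowest. Eif5 rose by a log2 fold change of 0.32 (edgeR, SE 0.08, adjusted p = 0.0312), and 0.26 without sham 3. This was the least stable call of the 10, kept in 4 of 14 alternatives. It ended without a filter on low counts (adjusted p = 0.0509), with total-count scaling (0.0626), with length offsets (0.126) and without any 1 library other than sham 3 (0.0669 to 0.123). Transcripts of Eif5 were divided differently among libraries: the main protein-coding transcript of 4050 bases took 68.4% to 73.5% of the reads in the tumour libraries and 60.6%, 49.6% and 71.4% in sham 1 to 3. Eif5a, the elongation-promoting factor that carries hypusine, had 236, 246 and 239 CPM in the tumour and 233, 228 and 356 CPM in the sham libraries. Only sham 3 was far from the rest there (log2 fold change -0.18, SE 0.18, adjusted p = 0.516). Dhps, which makes the hypusine of eIF5A, is described with the pathway genes. Eif5a2, Eif5b and Eif6 were not called.

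The eIF2 subunit genes had unequal fold changes, and 0 of 3 were called, where 20.9% of all tested genes were called. Eif2s2, the beta subunit gene, had 147, 148 and 152 CPM in the tumour and 110, 106 and 135 CPM in the sham libraries. The groups did not overlap (edgeR log2 fold change 0.34, SE 0.10, adjusted p = 0.0572; DESeq2 adjusted p = 0.0319; 0.46 without sham 3, where it was called). Eif2s1, the alpha subunit gene that bears the phosphorylated serine, did not overlap in the other direction, at 57.2 to 59.9 CPM against 67.8 to 85.1 CPM (-0.33, SE 0.10, adjusted p = 0.0619; DESeq2 adjusted p = 0.0479; -0.22 without sham 3, where it was called). In TPM, Eif2s2 stood at 2.29, 2.52 and 2.47 times Eif2s1 in the tumour libraries and at 1.40, 1.47 and 1.45 times in the sham libraries. The beta to alpha ratio was therefore higher in every tumour library, and sham 3 matched the other sham libraries in it. Eif2s2 had the highest log2 fold change of the 3 genes (0.34) and Eif2s1 the lowest (-0.33). The ratio thus sets the ends of the range against each other, and its separation follows from that choice. Eif2s3x, the X-linked gamma subunit gene and the most abundant of the 3 in TPM, had 231, 239 and 237 CPM in the tumour and 211, 206 and 261 CPM in the sham libraries, which overlap (0.06, SE 0.11, adjusted p = 0.717). Of the alternative initiator tRNA carriers, Eif2a had 58.3 to 60.9 CPM in the tumour and 41.8 to 57.0 CPM in the sham libraries (adjusted p = 0.0984), and Eif2d had a log2 fold change of -0.08.

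In eIF2B, the exchange factor of eIF2, the beta subunit gene fell and the other 4 subunit genes were not called. Eif2b2 lies on chromosome 12 from 85219481 to 85226628 (plus strand). It had 37.0, 35.9 and 39.6 CPM in the tumour and 54.2, 56.2 and 53.4 CPM in the sham libraries. Every tumour value was below every sham value, and sham 3 lay with sham 1 and 2. Eif2b2 had a log2 fold change of -0.54 (edgeR, SE 0.06, adjusted p = 0.00362), and -0.56 without sham 3, and the call was kept whichever library was left out. The other subunit genes Eif2b1, Eif2b3, Eif2b4 and Eif2b5 had log2 fold changes of -0.01, -0.10, -0.12 and 0.12. Summed over transcripts, Eif2b2 was also the subunit gene with the highest TPM, at 58.1 ± 5.73 in the tumour and 76.5 ± 8.16 in the sham libraries (SD, n = 3). The other 4 had group means of 14.3 to 27.6 TPM. The main protein-coding transcript of Eif2b2 alone had 29.8, 28.2 and 32.0 TPM in the tumour and 41.5, 41.5 and 44.0 TPM in the sham libraries. That of Eif2b5 had 30.4, 24.7 and 27.1 TPM in the tumour and 23.7, 22.7 and 27.5 TPM in the sham libraries. In sham libraries 4.56% to 9.31% of the Eif2b2 reads were assigned to a retained-intron transcript of 587 bases, and 0 to 5.03% in the tumour libraries.

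The multi-subunit scaffold eIF3 showed a single change among 14 genes (7.14% called, against 20.9% of all tested genes). Eif3c, which encodes a core subunit that contacts eIF1 and eIF5, lies on chromosome 7 from 126546455 to 126566411 (minus strand). It had 339, 319 and 325 CPM in the tumour and 214, 214 and 245 CPM in the sham libraries, and the groups did not overlap. Eif3c rose by a log2 fold change of 0.55 (edgeR, SE 0.09, adjusted p = 0.00844), and 0.61 without sham 3. The call ended without tumour 1 (adjusted p = 0.0539) and without tumour 3 (0.0518). Set against the neighbouring core subunit gene Eif3b in TPM, Eif3c stood at 2.87, 2.79 and 2.80 times in the tumour and 1.79, 1.64 and 1.68 times in the sham libraries. Eif3c had the highest log2 fold change of the 14 genes (0.55), and Eif3b with Eif3j1 the lowest (-0.17). This ratio therefore sets the ends of the range against each other, and it does not describe the other subunit genes.

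In 12 of the 14 eIF3 genes sham 3 was the highest library, with a median log2 difference of 0.48 from sham 1 and 2. Eif3h, the subunit gene with the highest TPM, was an example. It had 213, 205 and 201 CPM in the tumour and 171, 172 and 275 CPM in the sham libraries, so the tumour values lay above sham 1 and 2 and below sham 3. Its log2 fold change was 0.00 (edgeR, SE 0.19, adjusted p = 0.993) with all libraries and 0.27 without sham 3. Over the 14 genes the median was 0.04 with all libraries and 0.17 without sham 3, where 8 were called higher and 0 lower. Eif3j1 and Eif3j2 are near-identical copies, so the division of their reads is uncertain.

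**Figure D3:**
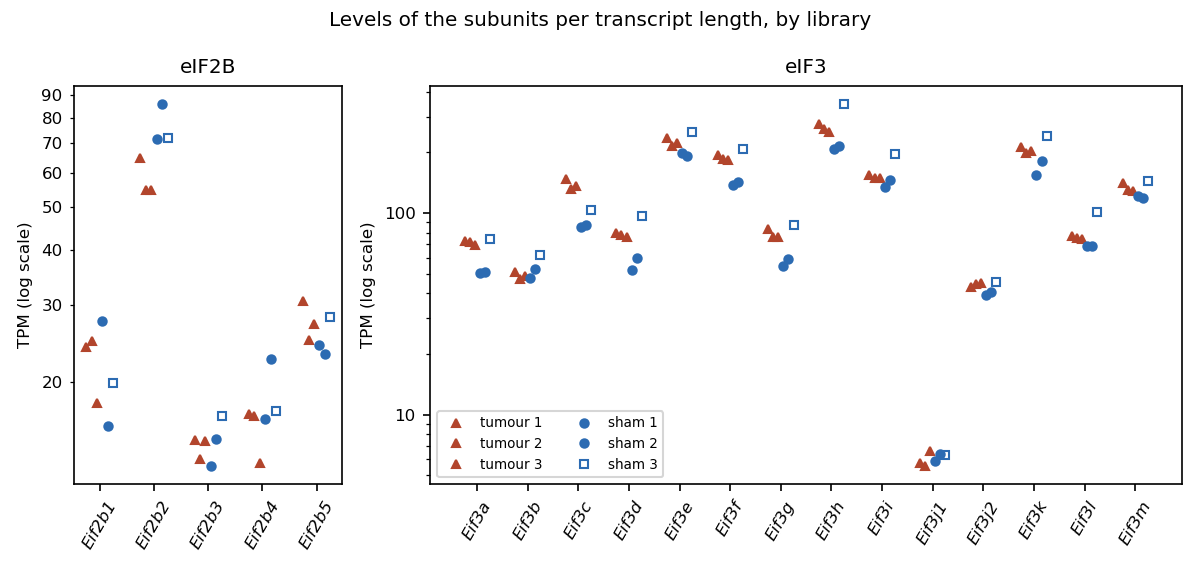
TPM (log scale, y axis) of the 5 eIF2B and 14 eIF3 subunit genes in each library (tumour triangles, sham 1 and 2 filled circles, sham 3 open square). With TPM summed over transcripts, Eif2b2 lies above the other eIF2B genes and lower in the tumour libraries. In eIF3 the tumour values of Eif3c lie above all sham values, whereas in most other subunit genes the open square is highest.

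Of the 7 genes grouped by symbol as eEF1 or eEF2, Eef1e1 among them, 0 were called, where 20.9% of all tested genes were called. Eef1a1 and Eef2 had the highest TPM of all members. Eef1a1, the carrier of aminoacyl-tRNA, had 7086, 6820 and 6878 CPM in the tumour and 4424, 4445 and 8108 CPM in the sham libraries. The tumour values lay above sham 1 and 2 and below sham 3, and pseudogene copies make the level less certain. Its log2 fold change was 0.29 (edgeR, SE 0.27, adjusted p = 0.481), and 0.64 without sham 3. Eef2, the translocase gene, had 3017, 3020 and 3012 CPM in the tumour and 1930, 1954 and 3471 CPM in the sham libraries (0.30, SE 0.25, adjusted p = 0.438; 0.63 without sham 3). Eef1g, a structural subunit of the exchange factor, had 277, 268 and 268 CPM in the tumour and 149, 153 and 342 CPM in the sham libraries (0.34, SE 0.33, adjusted p = 0.502; 0.84 without sham 3). All 3 were thus ordered in the same way, sham 3 above the tumour libraries and these above sham 1 and 2. Eef1b2, Eef1d and Eef1e1 were also highest in sham 3. Eef1a2, the form of neurons and muscle, stood at 0.911 to 1.07 CPM in the tumour and 0.953 to 1.36 CPM in the sham libraries.

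The elongation factor genes eEF1 and eEF2 took 0.903%, 0.861% and 0.873% of summed TPM in the tumour libraries, 0.551% and 0.569% in sham 1 and 2 and 1.05% in sham 3. Genes named Eif together took 0.638%, 0.617% and 0.627% in the tumour libraries and 0.508%, 0.524% and 0.607% in the sham libraries. The first share overlapped between the groups, with sham 3 above the tumour libraries. The second did not overlap, though sham 3 at 0.607% lay close below the lowest tumour value of 0.617%. This lack of overlap depends on Eif1, which unlike most members was lowest in sham 3. Eif1 had 960, 982 and 1002 TPM in the tumour and 656, 730 and 459 TPM in the sham libraries. For comparison, 0 of 81 tested cytosolic ribosomal protein genes were higher and 2 were lower, with a median log2 fold change of 0.16, and 0.34 without sham 3. Sham 3 was the highest library in 66 of them (81.5%).

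**Figure D4:**
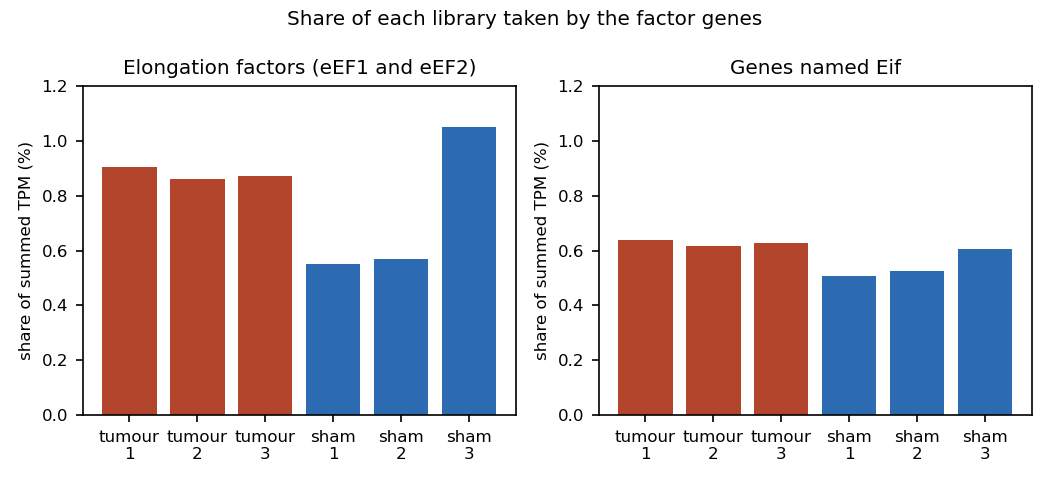
Share of summed TPM in percent (y axis, from 0) taken by the eEF1 and eEF2 genes (left) and by the genes named Eif (right) in each library (x axis, 1 bar a library, tumour red and sham blue). On the left the tumour bars lie between 0.861% and 0.903%, above sham 1 and 2 and below sham 3 at 1.05%. On the right all tumour bars lie above all sham bars, with sham 3 at 0.607% close below them.

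Of 8 tested kinase and methyltransferase genes that act on the factors 3 were lower and 0 higher, where 10.4% of all tested genes were lower. Eef1akmt1, a lysine methyltransferase of eEF1A, lies on chromosome 14 from 57549597 to 57571612 (minus strand). It had 6.09, 7.48 and 6.48 CPM in the tumour and 11.6, 13.1 and 14 CPM in the sham libraries, from 147 to 315 reads each, and the groups did not overlap. Here the log2 fold change was -0.95 (edgeR, SE 0.14, adjusted p = 0.00635), and -0.89 without sham 3, and the call was kept whichever library was left out. Eef1akmt2, another lysine methyltransferase of eEF1A, lies on chromosome 7 from 132827457 to 132852673 (minus strand). It had 12.3, 12.9 and 13.2 CPM in the tumour and 20.2, 18.2 and 16.7 CPM in the sham libraries, also without overlap (-0.52, SE 0.10, adjusted p = 0.0170; -0.58 without sham 3). Its annotation overlaps that of Fgfr2 on the same strand. The call of Eef1akmt2 ended with length offsets (adjusted p = 0.0714) and without any 1 library other than sham 3 (0.0530 to 0.0843).

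Eif2ak2 encodes PKR, the eIF2 kinase that double-stranded RNA switches on, and lies on chromosome 17 from 78852564 to 78882573 (minus strand). It had 72.2, 66.8 and 72.4 CPM in the tumour and 92.9, 84.0 and 81.8 CPM in the sham libraries, and the tumour values all lay below. Its log2 fold change was -0.29 (edgeR, SE 0.07, adjusted p = 0.0355), and -0.33 without sham 3. The call ended with length offsets (adjusted p = 0.0509) and without any 1 library other than sham 3 (0.0802 to 0.144), and the non-coding gene Gm26637 overlaps Eif2ak2 on the other strand. Eif2ak1, the kinase that senses haem, and Eif2ak4, the kinase that senses uncharged tRNA, had log2 fold changes of 0.02 and 0.01, with overlapping groups. Eef2k, the kinase that halts eEF2, had 49.9 to 53.4 CPM in tumour libraries, 68.1 CPM in sham 3 but 40.1 and 38.4 CPM in sham 1 and 2.

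Promoter sequences of 50 of the 66 members and 8 of the 10 called members were found in RefSeq (GRCm38.p6), each covering 250 bases before to 50 bases after a start site. Both strands were searched for ACGTG, the core of the hypoxia response element, for GAAA, any 2 bases and GAAA again, a core of interferon response elements, and for TGATGNAA, the composite element of ATF4 and C/EBP. ACGTG, which the E-box CACGTG also contains, was present in 21 matched members (42.0%), in 28.4% of 10878 matched tested genes and in 21.8% of all 27025 matched genes. A match at any RefSeq start site of a gene was counted, so these shares depend on the number of start sites per gene. Among the 8 called members it was present in Eif1, Eif2b2, Eif4e, Eif4g3 and Eif5. In Eif4e the start site nearest the transcript with most reads had no match, so no window is shown. The interferon core was present in 4 members (8.0%) and in 3.76% of tested genes, and TGATGNAA in 2 members (4.0%) and 2.77% of tested genes. The windows of 30 bases below show where the match lies in 4 of these called members and in Eif2ak2, with the matched letters in capitals. In Eif2b2 the match is on the opposite strand. A match describes letters and is not a site of binding.
Eif1: gggtggggccgagACGTGagggcagcgcgc
Eif2b2: agctccgccctaaCACGTttctgattggcc
Eif4g3: ctacagACGTGcccttcggtctctccctca
Eif5: aagcgtgagatcgACGTGcatgcgagccaa
Eif2ak2: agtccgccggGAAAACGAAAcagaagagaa

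These windows lie at chr11:100319908-100319937 on the plus strand for Eif1, chr12:85219390-85219419 (plus) for Eif2b2, chr4:137993206-137993235 (plus) for Eif4g3, chr12:111538080-111538109 (plus) for Eif5 and chr17:78882535-78882564 (minus) for Eif2ak2, all in GRCm38.p6. The capitals begin at position -28 from the RefSeq start site in Eif1, -78 in Eif2b2, -244 in Eif4g3 and -8 in Eif5. In Eif2ak2 they begin at position 19. GENCODE places the gene start farther upstream than RefSeq in Eif1, Eif4g3 and Eif5, so these 3 windows lie within the GENCODE gene spans given above, as does that of Eif2ak2. Of the called members with ACGTG, Eif1 and Eif5 rose and Eif2b2, Eif4e and Eif4g3 fell. A part of these letters in the changes was not tested.

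The genes around the factors were described by 5 lists with 64 genes in all, of which 11 were higher and 12 lower (35.9% called, against 20.9% of all tested genes). Leaving out 1 tumour library gave 6 to 7 higher and 5 to 7 lower, and leaving out sham 3 gave 22 and 23. Of 10 genes of ATF4, the transcription factor favoured when eIF2 is phosphorylated, and its targets, 7 were higher and 0 lower, with a median log2 fold change of 1.2. Atf4 itself had 232, 233 and 241 CPM in the tumour and 131, 126 and 93.8 CPM in the sham libraries (edgeR log2 fold change 1.01, SE 0.13, adjusted p = 0.00453). Trib3, a pseudokinase gene, had 24.6, 27.5 and 27.2 CPM against 1.98, 2.16 and 1.63 CPM (3.77, adjusted p = 7.75e-05). Chac1, a glutathione-degrading enzyme gene, had 24.0, 24.7 and 19.9 CPM against 2.68, 3.66 and 3.18 CPM (2.85, adjusted p = 0.000307). Ddit3, which encodes CHOP, had 36.0, 31.8 and 35.6 CPM against 13.7, 14.5 and 11.3 CPM (1.39, adjusted p = 0.00119). None of these 4 genes overlapped between the groups, where 44.1% of all tested genes did not overlap. Trib3, Chac1 and Ddit3 were shown for their smallest p in the list, so their lack of overlap follows in part from that choice. Over the whole list of 10 genes the tumour libraries lay above all sham libraries in 7 and below them in 1. In each of the 4 genes sham 3 lay at the level of the other sham libraries or below. Atf5, Slc7a11 and Asns rose as well, but for these genes sham 3 was the highest sham library. Over sham libraries 1 to 3 Asns measured 13.9, 14.6 and 28.8 CPM, Slc7a11 10.2, 9.73 and 18.0 CPM, and Atf5 102, 111 and 117 CPM. The serine synthesis genes Phgdh and Psat1 had log2 fold changes of -0.29 and -0.05 and were not called.

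Of 7 genes that control the phosphorylation of eIF2, 1 was higher and 1 lower. Ppp1r15b, the constitutive partner that brings phosphatase 1 to eIF2, had 130, 126 and 118 CPM in the tumour and 99.1, 101 and 78.2 CPM in the sham libraries (edgeR log2 fold change 0.43, SE 0.11, adjusted p = 0.0375). Ppp1cc, a catalytic subunit gene of phosphatase 1, had 100, 96.2 and 100 CPM against 115, 120 and 128 CPM (-0.29, SE 0.06, adjusted p = 0.0234). The stress-induced partner gene Ppp1r15a had 233 to 244 CPM in tumour libraries, 27.8 CPM in sham 3 but 206 and 214 CPM in sham 1 and 2. It was not called (0.67, SE 0.65, adjusted p = 0.505), and the value without sham 3 was 0.18.

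Of 15 genes of mTORC1 and its control 1 was higher and 4 were lower, with a median of 0.00. Deptor, an inhibitor of mTOR, had 46.4, 49.5 and 50.8 CPM in the tumour and 80.1, 76.4 and 70.4 CPM in the sham libraries (edgeR log2 fold change -0.63, SE 0.07, adjusted p = 0.00328). Pdcd4, which encodes an inhibitor of eIF4A, had 60.1, 62.0 and 54.2 CPM against 90.4, 89.9 and 106 CPM (-0.70, SE 0.09, adjusted p = 0.00480). Mlst8, a shared subunit of the mTOR complexes, had 19.0, 17.5 and 17.9 CPM against 25.6, 26.6 and 24.5 CPM (-0.50, SE 0.08, adjusted p = 0.00811). The S6 kinase gene Rps6kb1 also fell (-0.31), Tsc1, which restrains mTORC1, rose (0.54), and Mtor itself had a log2 fold change of -0.06 and was not called.

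Of 18 genes that help at the cap or the poly(A) tail 1 was higher and 7 were lower, with a median of -0.15. Mknk1, an eIF4E kinase gene, had 40.1, 41.5 and 41.4 CPM in the tumour and 66.1, 71.5 and 59.3 CPM in the sham libraries (edgeR log2 fold change -0.68, SE 0.08, adjusted p = 0.00362). The nuclear cap-binding genes Ncbp1 and Ncbp2 fell as well. Ncbp1 had 33.2, 33.3 and 35.3 CPM against 46.4, 48.7 and 44.9 CPM (-0.46, adjusted p = 0.00617), and Ncbp2 had 34.9, 32.2 and 36.3 CPM against 54.7, 47.3 and 55.0 CPM (-0.60, adjusted p = 0.00654). Mcts1, Mcts2, Dhx29 and Abce1 were the other falls, and Paip2b, an inhibitor of poly(A)-binding protein, rose (0.39). The poly(A)-binding protein gene Pabpc1 resembled the elongation factors in its order, at 869 to 895 CPM in tumour libraries, 896 CPM in sham 3 but 549 and 532 CPM in sham 1 and 2, and was not called. Of 15 genes of termination, ribosome recycling and factor modification 1 was higher and 0 lower. This was Dhps, deoxyhypusine synthase, at 25.3, 26.7 and 27.6 CPM against 17.6, 19.0 and 20 CPM (0.49, SE 0.08, adjusted p = 0.0102).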

How the data were processed

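Per the submitters' processing notes, Salmon 0.8.2, DESeq2 1.28.1 and mm10 were used. Per the file headers, the deposited tables give the estimated counts (expected counts) and the TPM of each transcript, with its length and effective length in bases. Of 113116 transcripts 112841 were matched to GENCODE M21, carrying at least 99.947% of reads. Gene values are the rounded sums of these deposited estimated counts, giving 35127 genes, 14666 with a total of 0. The TPM deposited by the authors were summed per gene.

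Differences were tested with edgeR 4.0.16 (R 4.3.3): TMM, filterByExpr at a minimum count of 10 and a minimum total of 15, a robust quasi-likelihood fit on group over all 6 libraries, and Benjamini-Hochberg adjustment over 14359 genes at 0.05. SE is the absolute log2 fold change over the root of F. Alternatives included DESeq2 1.42.0 and limma-voom 3.58.1. A level of 3 reads is 0.118 to 0.136 CPM, which covers counting error only. Values in every library were given for Eif4ebp1, the called members, and the member with the largest change and with the highest TPM in each complex, and for up to 3 called genes with the smallest p in each pathway list. Other genes were named after their values were seen. The members and lists were chosen with earlier results of these data known. The sources used here do not give strandedness.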

Additional observations from a re-analysis of the deposited data

How the results depend on the processing

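Over 14 alternatives, 222 of 294 values of 21 members kept direction and side of the threshold, 53 lost the call, 11 gained it and 8 changed sign. All genes had 1506 higher and 1492 lower calls, the members 4 and 6, and the pathway lists 11 and 12. Leaving out 1 library gave 536 to 4250 and 355 to 4179 calls over all genes, 1 to 32 and 2 to 11 over the members, and 6 to 22 and 5 to 23 over the lists. The highest of these counts are those without sham 3. With the replicate number as a block, 829 genes were higher and 607 lower, with 2 and 2 members, and the calls of Eif4e, Eif4g3, Eif1, Eif5, Eef1akmt2 and Eif2ak2 ended. Same-numbered libraries had correlations of 0.00785, -0.0194 and -8e-04 in their deviations from the group means, so they share a number and no pairing was seen. Transcript length offsets gave 968 lower genes and 2 higher and 2 lower members. With tumour 1 to 3 summed and sham 1 and 2 summed, edgeR called 0 genes, 0 members and 0 list genes in either direction, with 573 of 15684 genes and 2 of 64 members at an unadjusted p below 0.05; fewer samples enter that fit. Eif4ebp1, Eif2b2 and Eef1akmt1 kept their calls in the other 13 alternatives. Of these 21 members, those whose sign changed were not called under any fit with the changed sign. Leaving out 1 library gave -0.01 (without sham 2) to 0.18 for Eif2s3x, -0.12 (without sham 1 or sham 2) to 0.27 for Eif3h and -0.30 to 0.06 (without sham 3) for Eif5a, and Eif3h had -0.02 without tumour 1. Eif3h had -0.04 with total counts, -0.01 without a filter, and -0.12 with close libraries summed. Among the other members, Eif4e3 (-0.18), Eef1b2 (-0.06), Eif1a (-0.04) and Eif4g1 (-0.04) turned to called rises of 0.85, 0.23, 0.11 and 0.09 without sham 3, and further uncalled members changed sign in at least 1 alternative. The cause was not tested.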
